A study of Mus musculus with 10 samples.

Results

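The genes described here encode the non-collagen part of the extracellular matrix of the heart, with the enzymes that crosslink it and the proteases and inhibitors that turn it over. There were 48 such genes on the list: 9 of elastic fibres and microfibrils, 10 adhesive and matricellular proteins, 6 proteoglycans, 8 basement membrane proteins, 5 crosslinking and collagen-modifying enzymes, 6 proteases and 4 protease inhibitors. A gene was measured by a probe set, a group of probes summarised as 1 value, whose annotation names that gene alone. This gave 45 of the 48 genes, out of 19938 genes in all, each with a single probe set. Loxl2 had only a probe set shared with another gene, and Fbn1 and Spp1 had none with a single symbol, so these 3 were not analysed here.

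The matrix of the myocardium is laid down mainly by fibroblasts and, around vessels, by smooth muscle and endothelial cells. Each muscle cell is wrapped in a basement membrane of laminins, nidogens and perlecan, to which it also contributes. Small leucine-rich proteoglycans bind collagen fibrils, lysyl oxidases crosslink collagen and elastin, and matrix metalloproteinases cut these proteins under the control of TIMPs, their tissue inhibitors.

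Affymetrix arrays were hybridised with RNA from 4 groups of male C57BL/6 mice aged 3 months, none of them treated. These were ventricular cardiomyocytes of VAChT knockdown (KD) mice on 3 arrays, ventricular cardiomyocytes of wild-type (WT) mice on 3 arrays, whole hearts of KD mice on 2 arrays and whole hearts of WT mice on 2 arrays. VAChT, encoded by Slc18a3, loads acetylcholine into secretory vesicles, and the title of the series calls the KD genotype KDHOM. Each array held RNA pooled from 2 samples, and nothing else in the labels says that arrays came from separate animals, so a p-value here reflects how far these arrays vary among themselves, some of which could be technical. How the knockdown was made, and which cells it reaches, is not given in the sources used here.

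All values are log2 intensities, and a difference of 1 is a 2-fold change in intensity. Array medians were 5.82 to 5.93 in cardiomyocytes and 7.25 to 7.31 in hearts. Slc18a3 was 6.22, 6.52 and 6.21 in KD cardiomyocytes, against 6.06, 6.37 and 6.04 in WT cardiomyocytes, and 7.31 and 7.84 in KD hearts, against 7.34 and 7.72 in WT hearts. It was thus not lower in the KD arrays, and where its probes lie relative to the altered part of the gene is not known here. Among the hearts, KD replicate 1 differed from the rest in 7 thymocyte and T cell markers, with a mean 3.03 above the WT mean, and KD replicate 2 in 5 atrial markers, with a mean deviation of -1.34. The count lower and the median of the 45 matrix genes in hearts are therefore also given without each of these arrays. The same was done for the 5 matrix genes with an unadjusted limma p under 0.05 in hearts. The arrays labelled as cardiomyocytes carried 8 cardiomyocyte markers at summed linear intensities of 73317 to 74513 in KD and 71424 to 76296 in WT, and also held signal for fibroblast and endothelial markers, given below.

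The first comparison set WT cardiomyocytes against WT hearts, and asked which matrix transcripts go with the isolated muscle cells and which with the rest of the organ. Most matrix genes were lower in the cardiomyocytes. On values quantile normalized over all arrays, which gives every array the same distribution, 39 of the 45 genes passed a limma adjusted p of 0.05, against 58.9% of all genes. Of these, 35 were called lower in cardiomyocytes (28.4% of all genes) and 4 were called higher (30.5% of all genes). The median difference was -1.17, against 0.01 over all genes, and single genes ran from -3.37 to 0.67.

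Small leucine-rich proteoglycans lay at the low end. Lum, encoding lumican, a fibril-binding proteoglycan, was 7.13, 5.91 and 6.56 in WT cardiomyocytes and 9.98 and 9.83 in WT hearts on the normalized scale. Its difference was -3.37 (SE 0.26, adjusted p 1.35e-06), a cardiomyocyte intensity 0.0964 times that of hearts. Dcn, encoding decorin, which binds and spaces collagen fibrils, was 10.85, 9.56 and 10.45 in WT cardiomyocytes and 13.40 and 13.52 in WT hearts (difference -3.18, SE 0.30, adjusted p 5.68e-06). All cardiomyocyte arrays lay below both heart arrays in both genes, as in 36.2% of all genes, and by more than the spread within either group. Biglycan (Bgn, -2.51), fibromodulin (Fmod, -1.63) and versican (Vcan, -1.56), a large aggregating proteoglycan, were lower too.

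The sixth proteoglycan went the other way. Ogn, encoding osteoglycin, was 10.10, 10.27 and 10.36 in WT cardiomyocytes and 9.88 on both WT heart arrays, a difference of 0.36 (SE 0.11, adjusted p 0.0144). It was 1 of the 4 genes called higher in cardiomyocytes, with the proteoglycan-cutting protease Adamts1, the laminin alpha 2 chain Lama2 and the laminin beta 2 chain Lamb2. Laminins that hold the alpha 2 chain are the typical laminins of the muscle cell basement membrane. Adamts1 was 9.24, 8.79 and 8.65 in WT cardiomyocytes and 8.40 and 8.05 in WT hearts (difference 0.67, SE 0.21, adjusted p 0.0188). Lama2 was 9.22, 9.53 and 9.32 in WT cardiomyocytes and 9.08 and 8.90 in WT hearts (0.37, SE 0.12, adjusted p 0.0183). On the values as deposited Lama2 was instead called lower (limma adjusted p 0.0381). Lamb2 was 10.32, 10.69 and 10.44 in WT cardiomyocytes and 10.17 and 10.09 in WT hearts (0.35, SE 0.12, adjusted p 0.0234). The cardiomyocyte arrays lay above the heart arrays without overlap in all 4 genes, as in 38.2% of all genes. These calls depended on the scaling and on single arrays: on the values as deposited the differences were -0.12 for Adamts1, -0.28 for Lama2, -0.10 for Lamb2 and -0.12 for Ogn, and without WT heart replicate 2 none of the 4 passed. Ogn and Lamb2 also did not pass without WT heart replicate 1, Lama2 and Lamb2 without WT cardiomyocyte replicate 2, and Adamts1 without WT cardiomyocyte replicate 1.

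The sequences just upstream of these 4 genes are shown because they are the members whose level was called against the direction of the rest. Each is the 250 bases before the annotated start, from RefSeq on GRCm38.p6, read 5′ to 3′ on the gene's own strand. Capitals mark matches on either strand to 5 motifs: the GC box GGGCGG, the GATA motif AGATAA, the MCAT motif CATTCC, the TATA motif TATAAA and the AP-1 motif TGANTCA.
Ogn, chr13:49607765-49608014, plus strand: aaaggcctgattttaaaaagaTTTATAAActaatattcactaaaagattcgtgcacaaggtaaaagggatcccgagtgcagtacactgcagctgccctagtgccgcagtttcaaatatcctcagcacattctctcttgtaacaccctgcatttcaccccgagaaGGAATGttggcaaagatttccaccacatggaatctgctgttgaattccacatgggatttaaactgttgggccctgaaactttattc
Lama2, chr10:27616943-27617192, minus strand: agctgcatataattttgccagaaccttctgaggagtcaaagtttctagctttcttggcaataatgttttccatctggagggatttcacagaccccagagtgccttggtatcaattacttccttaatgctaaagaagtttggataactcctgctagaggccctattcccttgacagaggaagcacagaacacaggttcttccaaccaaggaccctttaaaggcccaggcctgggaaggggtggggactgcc
Lamb2, chr9:108479612-108479861, plus strand: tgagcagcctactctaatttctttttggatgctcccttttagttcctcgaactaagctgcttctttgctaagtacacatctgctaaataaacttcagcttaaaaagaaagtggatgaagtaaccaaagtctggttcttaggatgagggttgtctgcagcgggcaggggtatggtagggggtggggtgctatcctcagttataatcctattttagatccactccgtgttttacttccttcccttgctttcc
Adamts1, chr16:85803114-85803363, minus strand: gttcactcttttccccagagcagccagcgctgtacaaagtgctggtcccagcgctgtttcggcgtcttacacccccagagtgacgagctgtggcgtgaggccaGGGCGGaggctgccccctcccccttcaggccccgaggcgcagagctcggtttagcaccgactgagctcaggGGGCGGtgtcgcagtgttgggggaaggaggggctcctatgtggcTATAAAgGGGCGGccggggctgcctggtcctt

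The Ogn window held 2 overlapping TATA matches, 1 on each strand, and 1 MCAT match, and the Adamts1 window held 3 GC boxes and 1 TATA match that overlapped none of them. The Lama2 and Lamb2 windows held none of these letters. Promoter entries were found for 28 of the 45 genes, with 34 windows in all since some genes have several starts. The GC box stood in 20 of the 34 windows, against 32.7% of 32851 windows of all genes, the TATA motif in 7 (12.4% of all), the MCAT motif in 4 (12.6%), the AP-1 motif in 2 (6.75%) and the GATA motif in 1 (9.99%). A match is a run of letters and no evidence of binding.

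All 8 elastic fibre and microfibril genes were called lower in cardiomyocytes (median -1.41). Mfap5, encoding a small glycoprotein of microfibrils, was 6.86, 5.91 and 6.11 in WT cardiomyocytes and 8.69 and 8.99 in WT hearts (difference -2.54, SE 0.23, adjusted p 4.57e-06). The cardiomyocyte arrays lay far below the heart arrays, but their own range was the wider. Fibulin 5 (Fbln5, -1.95), which helps assemble elastic fibres, Eln itself, encoding elastin (-1.33), and Ltbp4, which binds latent TGF-beta (-1.38), followed. Emilin1, a glycoprotein of the elastin and microfibril interface, had the smallest difference of the class, at -0.86.

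Of the 9 adhesive and matricellular genes 8 were called lower (median -1.21). Tnxb, encoding tenascin X, was 6.72, 6.72 and 6.79 in WT cardiomyocytes and 9.02 and 8.80 in WT hearts, a difference of -2.16 (SE 0.11) with the smallest adjusted p of the 45 genes, 1.26e-07. Its 3 cardiomyocyte arrays were nearly identical. Thrombospondin 1 (Thbs1, -1.84), fibronectin (Fn1, -1.61), periostin (Postn, -1.22), and the thrombospondins Thbs2 (-1.21) and Thbs4 (-0.72) were lower as well. The collagen-binding SPARC (Sparc, -0.67) and its relative Sparcl1 (-1.13) were called lower on these values, but Sparc was at 0.18 and Sparcl1 at -0.20, neither called, with arrays centred on their medians. Tenascin C (Tnc), an adhesion-modulating protein, did not pass: it was 5.80, 5.56 and 5.83 in WT cardiomyocytes and 5.88 and 5.74 in WT hearts, and these ranges overlapped (-0.08, SE 0.28, adjusted p 0.823).

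The basement membrane class was split. Its median was -0.91, with 5 of 8 called lower and the laminin chains Lama2 and Lamb2 called higher. Lama4, a laminin alpha chain of vessel walls, was 7.76, 7.65 and 7.83 in WT cardiomyocytes and 9.54 and 9.15 in WT hearts (difference -1.60, SE 0.12, adjusted p 1.46e-06). The laminin chains Lamb1 (-1.17) and Lamc1 (-1.06) and the nidogens Nid1 (-1.29) and Nid2 (-0.75), which link laminin to collagen IV, were lower. Hspg2, encoding perlecan, the heparan sulfate proteoglycan of basement membranes, was 10.06, 10.13 and 9.81 in WT cardiomyocytes and 10.01 and 9.94 in WT hearts, with overlap (0.03, SE 0.12, adjusted p 0.855). It was called lower on the deposited values (-0.47) and higher with centred arrays (0.85).

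Among the crosslinking enzymes, the lysyl oxidases were lower. Loxl1 was 6.92, 6.79 and 6.89 in WT cardiomyocytes and 8.59 and 8.68 in WT hearts (difference -1.77, SE 0.10, adjusted p 2.04e-07), and Lox differed by -1.06 (SE 0.10, adjusted p 4.19e-06). The collagen prolyl hydroxylase subunit P4ha1 differed by -0.66 (adjusted p 0.00524), and by 0.05 with centred arrays, where it was not called. The lysyl hydroxylase Plod2 differed by -0.24 (adjusted p 0.093) on the normalized values and by 0.27 (adjusted p 0.0823) with centred arrays, so it was not called under either, while on the deposited values it was called lower (-1.05, adjusted p 1.81e-06).

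Of the 6 protease genes 4 were called lower and Adamts1 higher (median -0.65). Mmp2, encoding gelatinase A, was 8.09, 7.49 and 7.90 in WT cardiomyocytes and 10.43 and 10.48 in WT hearts (difference -2.63, SE 0.18, adjusted p 6.04e-07). Mmp14, the membrane-bound activator of pro-MMP2, differed by -1.03 (SE 0.11), Adamts5, an aggrecanase that also cuts versican, by -0.84 (SE 0.12), and Mmp3, encoding stromelysin 1, by -0.45 (SE 0.11). Mmp9, encoding gelatinase B, was 5.17, 5.60 and 5.39 in WT cardiomyocytes and 5.61 and 5.25 in WT hearts, with overlap (-0.05, SE 0.14, adjusted p 0.791).

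Of the 4 inhibitors of these proteases, Timp2 and Timp3 were lower. Timp2 was 8.20, 8.24 and 8.24 in WT cardiomyocytes and 10.19 and 10.28 in WT hearts (difference -2.00, SE 0.12, adjusted p 2.56e-07), and Timp3 differed by -1.25 (SE 0.21, adjusted p 0.000405; -0.41 and not called with centred arrays). Timp4, the TIMP known for high expression in heart, was 9.84, 9.11 and 9.22 in WT cardiomyocytes and 8.85 and 9.19 in WT hearts. Those groups overlapped, and its difference of 0.37 (SE 0.23, adjusted p 0.192) did not pass, though it was called higher with centred arrays (1.05) and on the KD arrays (0.66). Timp1 differed by -0.27 (SE 0.14, adjusted p 0.117) and was called lower with centred arrays (-0.48).

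**Figure D1:**
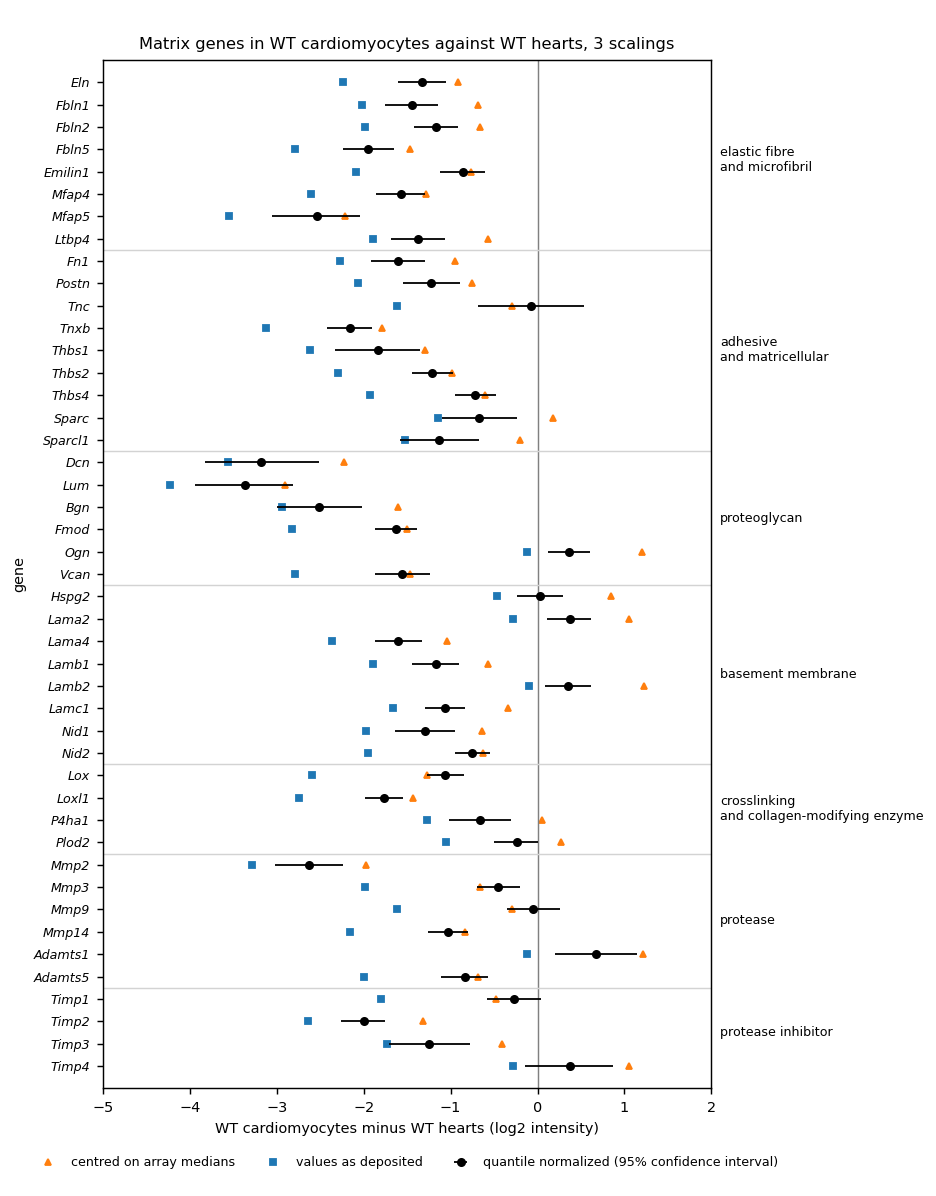
Difference between WT cardiomyocytes (3 arrays) and WT hearts (2 arrays) for each of the 45 matrix genes, on the log2 intensity scale, grouped by class; black points and bars are the quantile normalized values with their 95% confidence interval, orange triangles the values centred on array medians and blue squares the values as deposited. Most points lie left of 0 under every scaling, Lum and Dcn farthest, while Ogn, Lama2, Lamb2 and Adamts1 lie right of 0 on the normalized values and left of it on the deposited values.

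The scale of this comparison was not settled by the files, since array medians differed between the kinds of sample and the labels name different labelling manuals for them, so kind of sample and labelling cannot be told apart. With arrays centred on their medians, 32 genes were called lower and 6 higher, beside 5138 and 7770 of all 19938 genes. The median of the 45 genes was then -0.68 and that of all genes 0.12. On the values as deposited, 41 were called lower and 0 higher, with a median of -2.00 against -1.20 over all genes. Of all 19938 genes, 17403 were called lower on those values and 772 higher, so most genes of any kind were called lower there. Of all calls, 51.8% were higher in cardiomyocytes on the normalized values, 60.2% with centred arrays and 4.25% on the deposited values. Under all 3 scalings the same 31 genes were called lower: 8 of 8 of elastic fibres, 6 of 9 adhesive, 5 of 6 proteoglycans, 5 of 8 of the basement membrane, 2 of 4 crosslinking enzymes, 4 of 6 proteases and 1 of 4 inhibitors. How many of all genes were called lower under all 3 was not counted. The KD arrays, compared in the same way, gave 39 calls (60.2% of all genes were called), 34 lower and 5 higher (28.8% and 31.4% of all genes), with a median of -0.97, and 30 of the 31 were called lower there too, the exception being Mmp3 (-0.13, adjusted p 0.34). With 1 WT heart array left out, the calls of Sparc (either array), P4ha1 (replicate 1) and Mmp3 (replicate 2) were lost.

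Other genes of the matrix came from lists that hold none of the 48. Of 40 further structural matrix proteins 25 were called lower in WT cardiomyocytes and 3 called higher (median -0.58), beside 28.4% and 30.5% of all genes. Of 37 further matrix enzymes and inhibitors 17 were called lower and 5 called higher (median -0.20), and of 24 matrix receptors 10 were called lower and 3 called higher (median -0.25). The smallest p among them belonged to Efemp1, a fibulin (-2.61), Itga8, the integrin alpha 8 chain (-1.92), and Aebp1, a collagen-binding secreted protein (-1.98).

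Markers of the cells that make matrix differed in the same comparison. All 9 fibroblast markers were called lower in WT cardiomyocytes (median -2.18), as were 7 of 7 macrophage markers (median -2.44). Of smooth muscle and pericyte markers 6 of 7 were called lower and 1 called higher, at 0.82 (median -0.96). Also called lower were 5 of 7 endothelial markers (median -0.92), 4 of 5 mesothelial (median -2.12) and 4 of 4 adipocyte markers (median -1.38). Of neutrophil markers 2 of 5 were called lower, of thymocyte and T cell markers 1 of 7, of atrial markers 3 of 5 and of blood markers 2 of 2. Of 8 cardiomyocyte markers 3 were called higher and 1 called lower (median 0.00). The 7 endothelial differences ran from -1.50 to -0.04, and the endothelial cadherin Cdh5 lay at the small end of that range. On the normalized scale Cdh5 averaged 10.47 ± 0.11 in WT cardiomyocytes (SD, n = 3) and 10.50 ± 0.02 in WT hearts (SD, n = 2). Summed over the 9 fibroblast markers, the deposited linear intensity was 903 to 1309 on WT cardiomyocyte arrays and 12819 to 12938 on WT heart arrays. These markers include the collagen genes Col1a1, Col1a2 and Col3a1. With no detection calls, no marker could be called absent, and in RNA from bulk samples fewer cells of a type and less RNA per cell cannot be told apart. The part of cell composition in the matrix differences was not tested.

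The second comparison asked whether the matrix genes differ between KD and WT cardiomyocytes. No gene passed, among the 45 or among all 19938: limma called 0% of genes at an adjusted p of 0.05, and 419 genes (2.1%), 2 of them matrix genes, had an unadjusted p under 0.05. Of the 45 genes 24 were higher and 21 lower in KD, with a median of 0.01 against 0.00 over all genes and a range of -0.37 to 0.42. The 95% confidence interval of a matrix gene reached 0.27 to either side of its difference at the median. The KD and WT arrays did not overlap in 4 of the 45 genes, against 6.21% of all genes. These were Mmp9 and Lox, above WT (2.99% of all genes), and Mmp14 and Adamts5, below it (3.21% of all genes). At 8.89% of the 45, their share was near that of all genes.

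Mmp9 had the smallest p. It was 5.17, 5.18 and 5.15 in KD cardiomyocytes and 4.49, 5.0 and 4.75 in WT cardiomyocytes. The KD arrays were nearly equal and all above the highest WT array, and the difference was 0.42 (SE 0.13, p 0.00595, adjusted p 1). All of these values lay below the array medians, where signal is dim. Adamts5 was 5.78, 5.92 and 5.79 in KD cardiomyocytes and 6.36, 5.99 and 6.24 in WT cardiomyocytes, with a difference of -0.37 (SE 0.12, p 0.00738, adjusted p 1). Here the highest KD array lay just under the lowest WT array. Mmp14 was 5.91, 6.11 and 6.10 in KD cardiomyocytes and 6.17, 6.29 and 6.14 in WT cardiomyocytes (-0.16, SE 0.10, adjusted p 1), a gap of the groups smaller than the range within either. Lox was 4.42, 4.32 and 4.30 in KD cardiomyocytes and 4.27, 4.26 and 4.15 in WT cardiomyocytes (0.12, SE 0.09, adjusted p 1). Its values too lay below the array medians.

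The other members among the 8 with the smallest p overlapped between the genotypes. Timp4 was 9.19, 9.64 and 9.71 in KD cardiomyocytes and 9.66, 8.83 and 8.97 in WT cardiomyocytes (0.36, SE 0.20). One WT array was as high as the upper KD arrays. Vcan was 5.22, 5.46 and 4.88 in KD and 5.45, 5.37 and 5.46 in WT cardiomyocytes (-0.24, SE 0.13), with a single low KD array. Fbln1, encoding fibulin 1, was 9.09, 8.66 and 8.53 in KD and 8.49, 8.59 and 8.63 in WT cardiomyocytes (0.19, SE 0.14). Fbln5 was 6.68, 7.13 and 7.17 in KD and 6.88, 6.72 and 6.88 in WT cardiomyocytes (0.17, SE 0.13). In both fibulins 1 KD array lay below the WT mean and 2 above it.

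By class, the median difference in cardiomyocytes was 0.04 for elastic fibres and microfibrils (6 of 8 higher), 0.03 for adhesive proteins (6 of 9 higher), -0.04 for proteoglycans (2 of 6 higher), -0.02 for the basement membrane (3 of 8 higher), 0.05 for crosslinking enzymes (2 of 4 higher), -0.10 for proteases (2 of 6 higher) and 0.12 for inhibitors (3 of 4 higher). Of all genes 50% were higher. The 8 basement membrane genes spanned the narrowest range, -0.03 to 0.04. The other matrix lists had medians of 0.00 for proteins (20 of 40 higher), 0.01 for enzymes and inhibitors (20 of 37) and 0.01 for receptors (13 of 24). Their smallest p belonged to the lysyl oxidase Loxl4 (0.27, p 0.0238), the leucine-rich Ecm2 (-0.26, p 0.0658) and the laminin-binding integrin chain Itga6 (-0.29, p 0.0725), with adjusted p-values of 1.

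The spread among the WT cardiomyocyte arrays was wide for several genes. The SD was over 0.4 in 1 of the 45 genes in KD cardiomyocytes, where 0.757% of all genes passed that mark, and in 6 of 45 in WT cardiomyocytes, where 1.83% did. Dcn was 9.94, 10.40 and 9.78 in KD cardiomyocytes and 10.68, 9.30 and 10.30 in WT cardiomyocytes. Lum was 6.13, 6.17 and 5.93 in KD cardiomyocytes and 6.64, 5.32 and 6.01 in WT cardiomyocytes. In both, WT replicate 1 was the highest of the 6 arrays and WT replicate 2 the lowest. WT replicate 1 was the highest WT array and WT replicate 2 the lowest in 15 of the 45 genes (33.3%), against 14.5% of all genes. Fibroblast markers as a set moved with them. Their mean deviation from the WT mean was -0.14, 0.09 and -0.10 on the KD arrays and 0.19, -0.28 and 0.09 on the WT arrays. Their summed linear intensity was 1009 to 1223 in KD and 903 to 1309 in WT. Single markers differed in this. In WT cardiomyocytes Dpt was 7.88, 6.43 and 7.29, in the order of Dcn and Lum. Col1a1 was 7.22, 7.38 and 7.33 there, with replicate 1 the lowest, and Col3a1 was nearly flat at 6.80, 6.75 and 6.79. Endothelial markers deviated by -0.18, 0.05 and -0.04 on the KD arrays and by 0.16, -0.16 and 0.00 on the WT arrays. Macrophage markers were lower in KD in 7 of 7 (median -0.26), with summed intensities of 325 to 374 in KD and 354 to 595 in WT. By WT array the sums were 393, 354 and 595, so the high end was WT replicate 3 alone. The part of these cell types in the matrix values was not tested. Without WT replicate 1, 33 of the 45 genes were higher in KD (median 0.08), and without WT replicate 2, 19 were (median -0.03).

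**Figure D2:**
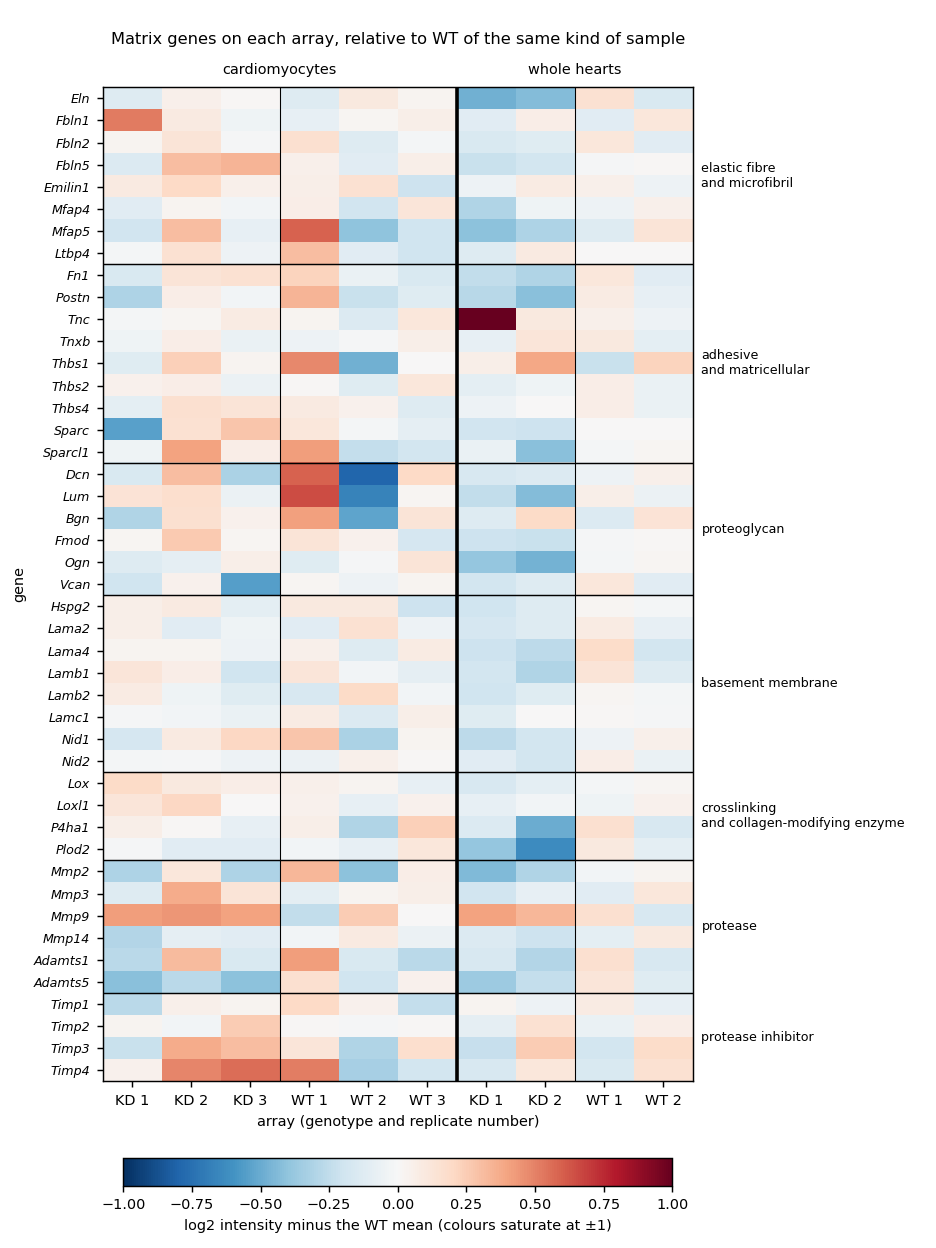
Log2 intensity of the 45 matrix genes on each of the 10 arrays minus the WT mean of the same kind of sample (rows are genes by class, columns are arrays, red is above the WT mean and blue below, with colours saturating at 1). Both KD heart columns are mostly pale blue, Tnc stands out on KD heart replicate 1, and in cardiomyocytes WT replicates 1 and 2 lie on opposite sides in Dcn, Lum, Bgn and Thbs1.

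The third comparison set KD against WT whole hearts. No gene passed here either (0% of genes called by limma; 982 genes, 4.93%, had an unadjusted p under 0.05, of which 5 were matrix genes), and the smallest adjusted p of a matrix gene was 0.94. Of the 45 genes 37 were lower in KD hearts, where 47.4% of all genes were, and the median was -0.16 against 0.01 over all genes. The genotypes did not overlap in 27 of the 45 genes, against 29.6% of all genes: in 25 the KD arrays were the lower (15.4% of all genes) and in 2, Mmp9 and Tnc, the higher (14.2%). The 95% confidence interval of a matrix gene reached 0.33 to either side of its difference at the median. Without KD replicate 1, 32 of 45 were lower (median -0.13, with 41.4% of all genes lower), and without KD replicate 2, 41 were lower (median -0.16, with 59.2% of all genes lower). With the dependence of the differences on intensity taken out by loess, 33 were lower and the median was -0.12, against -0.01 over all genes.

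The crosslinking enzymes held the smallest p. Plod2, which hydroxylates lysines of collagen before crosslinking, was 8.57 and 8.34 in KD hearts and 9.06 and 8.86 in WT hearts. The 2 genotypes did not overlap, and the difference was -0.51 (SE 0.13, 95% confidence interval -0.79 to -0.22, p 0.00204, adjusted p 0.94), an intensity 0.703 times that of WT. P4ha1 differed by -0.32 (SE 0.18), Lox by -0.13 (SE 0.11) and Loxl1 by -0.05 (SE 0.12). Thus 4 of 4 were lower, with a median of -0.23, and 2 did not overlap, beside 15.4% of all genes with KD arrays below WT. Plod2 was at -0.63 without KD replicate 1 and at -0.39 without KD replicate 2, and the class median was -0.30 and -0.15 in the same order.

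Of the proteoglycans 5 of 6 were lower, with a median of -0.19, and these 5 did not overlap, beside 15.4% of all genes with KD arrays below WT. Ogn was 9.80 and 9.73 in KD hearts and 10.18 and 10.21 in WT hearts (-0.43, SE 0.12, p 0.00422, adjusted p 0.95). The gap between the groups was several times the range within either, and the difference was -0.47 without KD replicate 1 and -0.39 without KD replicate 2. Lum differed by -0.34 (SE 0.29), Fmod by -0.21 (SE 0.13), Vcan by -0.16 (SE 0.16) and Dcn by -0.15 (SE 0.33), while Bgn was at 0.03 (SE 0.25).

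Of the 8 elastic fibre and microfibril genes 7 were lower in KD hearts, 4 of them without overlap, beside 15.4% of all genes with KD arrays below WT. The class median was -0.15, and it was -0.08 without KD replicate 1 and -0.19 without KD replicate 2. Eln was 8.64 and 8.69 in KD hearts and 9.27 and 8.97 in WT hearts (-0.45, SE 0.14, p 0.00592, adjusted p 0.95). The WT arrays differed more from each other than the KD arrays did, and Eln was at -0.43 without KD replicate 1 and -0.48 without KD replicate 2. Mfap5 differed by -0.36 (SE 0.26), Fbln5 by -0.20 (SE 0.16) and Mfap4 by -0.17 (SE 0.14), and Emilin1 was at 0.01.

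Adhesive and matricellular genes went both ways, with 6 of 9 lower and a median of -0.07. Tnc was 7.88 and 6.82 in KD hearts and 6.77 and 6.67 in WT hearts, a difference of 0.62 (SE 0.24, p 0.0221, adjusted p 0.95). That value rested on KD replicate 1, on which thymocyte markers were high: without it the difference was 0.10, and without KD replicate 2 it was 1.15 with an adjusted p of 0.000466, the lone KD array being assumed to vary like the other groups. Postn was 8.94 and 8.79 in KD hearts and 9.29 and 9.13 in WT hearts (-0.35, SE 0.18), and Fn1 was 9.83 and 9.78 in KD hearts and 10.20 and 9.97 in WT hearts (-0.28, SE 0.15). Neither gene overlapped between the genotypes, and neither passed. Thbs1 was at 0.23 (SE 0.25) and Tnxb at 0.02.

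Basement membrane genes lay on 1 side in hearts. All 8 were lower in KD, between -0.24 and -0.06 with a median of -0.16, and 7 did not overlap. With 2 arrays a group, KD arrays lay below WT without overlap in 15.4% of all genes. Lama4 and Lamb1 were at -0.24, Nid1 at -0.22, Hspg2 at -0.17, Lamb2 at -0.16, Lama2 at -0.15, Nid2 at -0.14 and Lamc1 at -0.06. The 95% confidence interval of each included 0. Lamc1 was at 0.01 with all arrays quantile normalized and at 0.03 with the intensity trend removed.

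Of the proteases 5 of 6 were lower, with a median of -0.20. Mmp9 was 6.76 and 6.70 in KD hearts and 6.52 and 6.20 in WT hearts (0.36, SE 0.16, p 0.0369, adjusted p 0.962), and its difference was 0.33 without KD replicate 1 and 0.40 without KD replicate 2. Adamts5 was 7.84 and 7.96 in KD hearts and 8.31 and 8.08 in WT hearts (-0.30, SE 0.14, adjusted p 1). Mmp14 was 8.22 and 8.16 in KD hearts and 8.26 and 8.46 in WT hearts (-0.18, SE 0.13). Mmp9 was thus above WT in both hearts and cardiomyocytes without overlap, as were 0.411% of all genes. Mmp14 and Adamts5 were below WT in both without overlap, as were 0.396% of all genes. In hearts Mmp9 again lay below the array medians, where signal is dim, and the Mmp14 groups were barely apart (8.22 against 8.26). Mmp2 was at -0.37 (SE 0.21), Adamts1 at -0.22 (SE 0.23) and Mmp3 at -0.14 (SE 0.15). The 4 inhibitors lay between -0.02 and 0.03, with 2 lower, the closest to 0 of any class. Their median was 0.13 without KD replicate 1 and -0.13 without KD replicate 2. The WT arrays were split in the same way. The median deviation from the WT mean was -0.13 and 0.13 on KD replicates 1 and 2, and -0.11 and 0.11 on WT replicates 1 and 2.

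**Figure D3:**
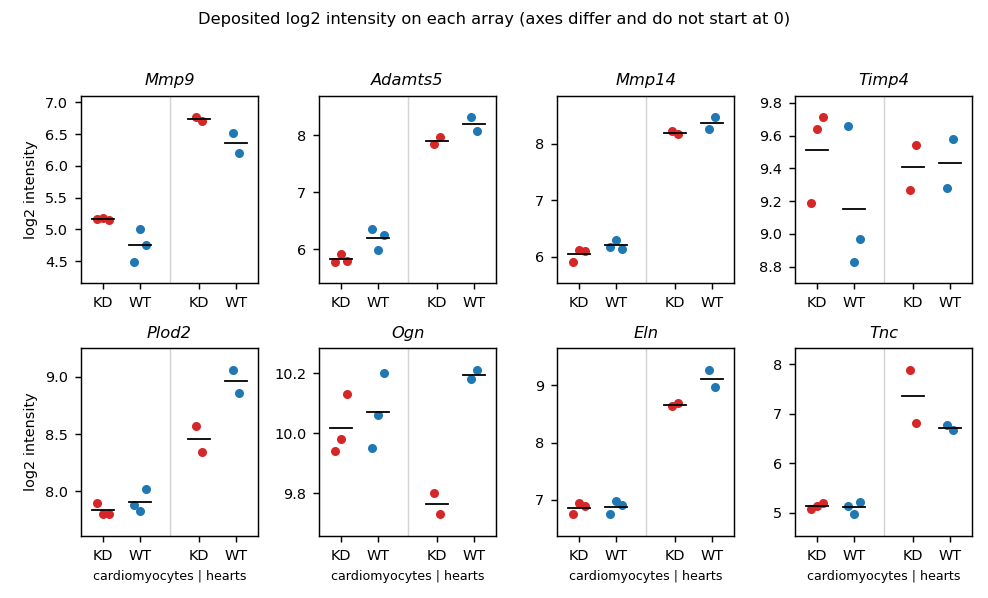
Deposited log2 intensity on each array for 8 matrix genes, with cardiomyocytes left and hearts right of the grey line in each panel, KD arrays in red, WT arrays in blue and the group mean as a black bar; axes differ between genes and do not start at 0. The KD arrays lie above the WT arrays of the same kind for Mmp9 and below them for Adamts5 and Mmp14, and in hearts below them for Plod2, Ogn and Eln.

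**Figure D4:**
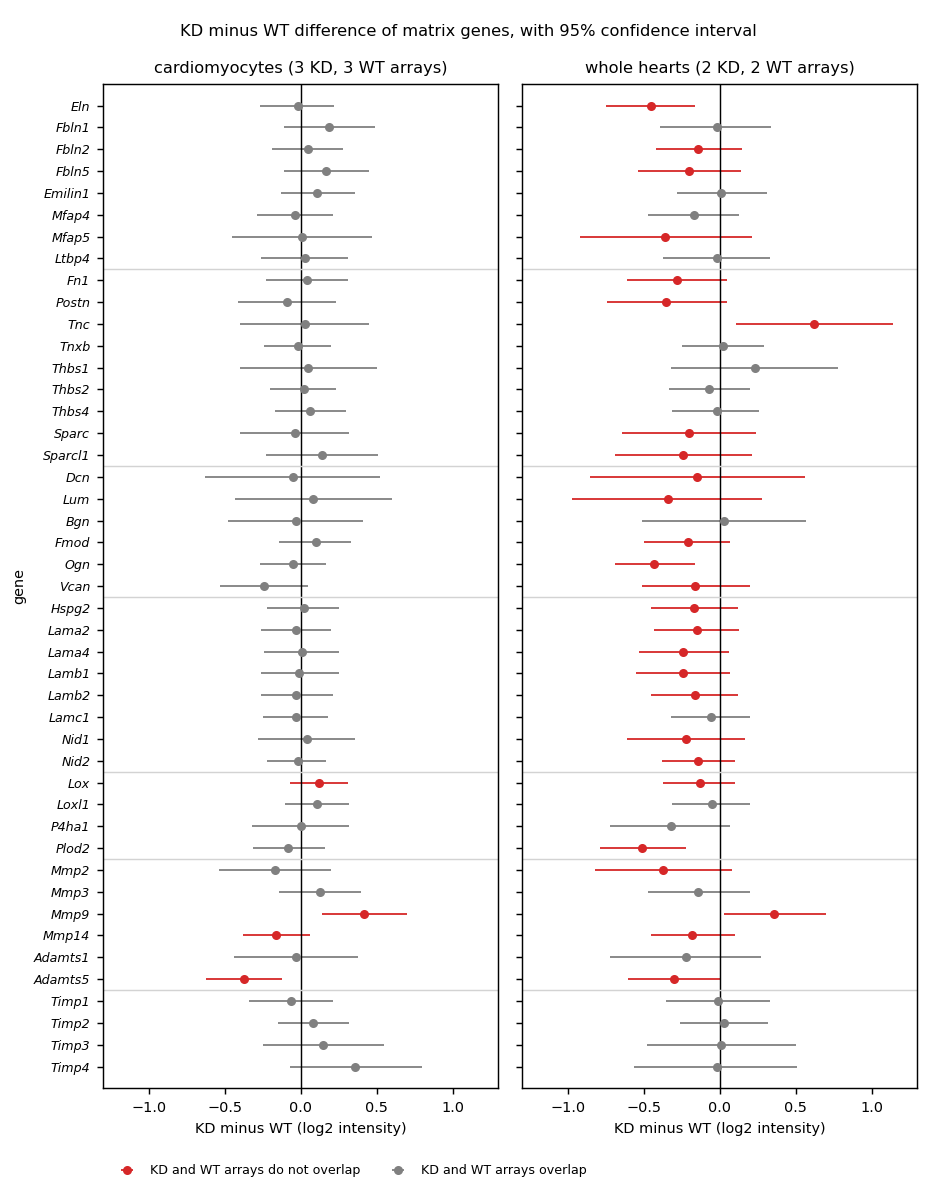
KD minus WT difference of each of the 45 matrix genes in log2 intensity, with its 95% confidence interval, in cardiomyocytes (left) and whole hearts (right); red marks genes whose KD and WT arrays do not overlap. Cardiomyocyte differences lie on both sides of 0, while 37 of 45 heart differences lie left of it, most with intervals that include 0.

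Marker genes of several cell types lay lower in KD hearts as well. All 9 fibroblast markers were lower (median -0.18, mean deviation -0.22 on both KD arrays), with summed linear intensities of 10833 to 11173 in KD and 12819 to 12938 in WT. That list includes the collagen genes Col1a1 (-0.31), Col1a2 (-0.27) and Col3a1 (-0.56), which are matrix genes themselves. Its remaining markers ran from -0.29 (Dpt) to -0.02 (Pdgfrl). The 7 endothelial markers were lower (median -0.21, summed intensity 8548 to 9005 in KD and 9442 to 10591 in WT), as were 7 of 7 smooth muscle and pericyte markers (median -0.19, 9190 to 9640 in KD and 10558 to 12080 in WT). So were 8 of 8 cardiomyocyte markers (median -0.13), 4 of 4 adipocyte markers (median -0.26), 5 of 5 mesothelial markers (median -0.11) and 5 of 5 atrial markers (median -0.79). Macrophage markers were higher in 6 of 7 (median 0.07), neutrophil markers in 3 of 5 (median 0.05), thymocyte and T cell markers in 7 of 7 (median 1.60) and blood markers in 2 of 2 (median 0.66). The thymocyte and T cell mean deviation was 3.03 on KD replicate 1 and 0.15 on KD replicate 2, against -0.13 and 0.13 on the WT arrays, and the atrial one was -0.24 on KD replicate 1 and -1.34 on KD replicate 2, against 0.05 and -0.05 on the WT arrays. Each of these 2 medians thus rested mostly on 1 KD array. None of these markers passed, and their part in the matrix values was not tested.

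**Figure D5:**
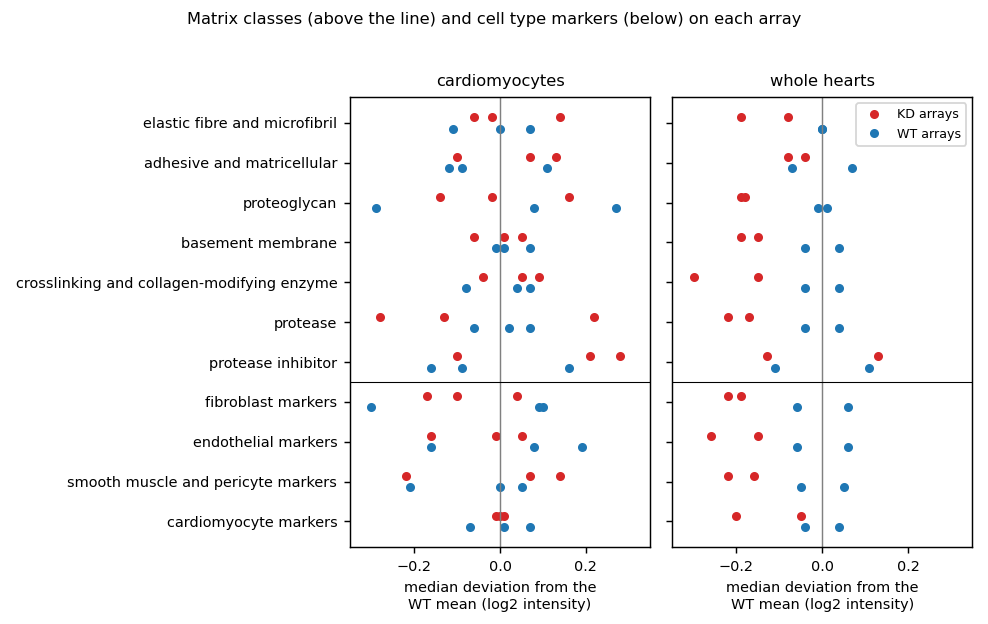
Median deviation from the WT mean, in log2 intensity, of each matrix class (above the black line) and of 4 lists of cell type markers (below it), 1 point per array, KD in red and WT in blue, for cardiomyocytes (left) and whole hearts (right). In hearts the KD arrays lie left of the WT arrays for 5 of the matrix classes and all 4 marker lists shown, with overlap for the adhesive and inhibitor classes, whereas in cardiomyocytes the genotypes overlap in every row.

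In the other matrix lists, further structural proteins were lower in KD hearts in 23 of 40 (median -0.03), further enzymes and inhibitors in 30 of 37 (median -0.07) and receptors in 13 of 24 (median -0.03). The smallest p belonged to Ecm2 (-0.44, p 0.0151), Adamts10, a protease tied to microfibrils (-0.43, p 0.0155), and the leucine-rich proteoglycan Aspn (-0.81, p 0.0214), each with an adjusted p of 0.95.

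Whether the KD effect differed between the kinds of sample was tested as a difference of the 2 effects. No gene passed (0% of 19938 by limma, smallest adjusted p 0.999; 696 genes, 3.49%, at an unadjusted p under 0.05). Among the 45 genes the median of the cardiomyocyte effect minus the heart effect was 0.16, and 3 had an unadjusted p under 0.05: Plod2 (0.43, SE 0.17, p 0.0253), Eln (0.43, SE 0.18, p 0.0307) and Ogn (0.38, SE 0.16, p 0.0345). For Mmp9 the effects differed by 0.06 (95% confidence interval -0.38 to 0.49), for Mmp14 by 0.02 (-0.33 to 0.37) and for Adamts5 by -0.07 (-0.47 to 0.32). The WT arrays enter both the genotype comparisons and the comparison of cardiomyocytes with hearts, so these are not independent of each other.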

How the data were processed

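Biotin-labelled cDNA was hybridised to Affymetrix arrays, per the labels. The authors deposited log2 intensities for 35556 probe sets, made with RMA and Partek per the submitters' processing notes, whose versions are not given there. RMA makes arrays treated together alike in distribution and compresses dim differences. Probe sets with several symbols (1621) or with none listed (12146) were left out, and of 999 genes with several probe sets the one with the highest mean over 10 arrays was kept.

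All 10 arrays were fitted in limma 3.58.1 (R 4.3.3) with 4 group means and eBayes with an intensity trend (6 residual degrees of freedom). Two-sided p-values were adjusted by the Benjamini-Hochberg method across the 19938 genes, with a threshold of 0.05. The comparison of cardiomyocytes with hearts used quantile normalized values. The code was tested on simulated data. The members, classes, lists and tests were chosen with earlier results of these data known.

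Values on every array are given for the 8 genes with the smallest p in each KD comparison and, for cardiomyocytes against hearts, the 4 lowest and 4 highest differences and the lowest of each class. Other members are given by class, other matrix lists by their 3 smallest p and markers by list. A few further members were given array by array after their values were seen. Alternatives were leaving out each array, a replicate block, quantile normalization, median-centred arrays, the genes above the 40th percentile of mean intensity alone, probe sets averaged per gene, a fit per kind of sample, array weights, eBayes without the trend, and removal of a loess trend (span 0.3) from the KD hearts. The number of arrays limits the precision. Promoter motifs were counted in RefSeq windows on GRCm38.p6.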

Additional observations from a re-analysis of the deposited data

Results flagged for a closer look

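Lox, encoding the lysyl oxidase that crosslinks collagen and elastin, had KD arrays above WT in cardiomyocytes and below WT in hearts, without overlap in either. The values were 4.42, 4.32 and 4.30 in KD and 4.27, 4.26 and 4.15 in WT cardiomyocytes, and 6.66 and 6.71 in KD and 6.80 and 6.83 in WT hearts. All of them lay below the array medians, where signal is dim, and in cardiomyocytes the groups were barely apart (4.30 against 4.27). KD arrays lay above WT without overlap in 2.99% of all genes in cardiomyocytes, and below WT in 15.4% in hearts. The share of genes doing both was not counted. The cardiomyocyte effect minus the heart effect was 0.25 (SE 0.14, 95% confidence interval -0.05 to 0.55), with a limma adjusted p of 0.999, so the difference did not pass.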

How the results depend on the processing

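No matrix gene passed between KD and WT under any alternative, except Tnc in hearts without KD replicate 2 (0 to 1 gene over the fits that left out an array). Genes called in KD hearts numbered 0 to 303, and for the difference between the KD effects 0 to 237, with an array left out; both maxima were without KD replicate 2. Same-numbered deviations correlated at 0.15, 0.13 and -0.05 in cardiomyocytes, and unlike-numbered ones at -0.19 to 0.07. In hearts, where 2 arrays a group give a single size, they correlated at 0.23 and -0.23 in the same order. The replicate numbers were not taken to pair the arrays, and a block on them was fitted as an alternative. With the replicate block 1 gene was called in KD hearts and 0 in KD cardiomyocytes. The median of the 45 genes was -0.12 in KD hearts with the loess trend removed and -0.18 to -0.13 with an array left out; in KD cardiomyocytes it was -0.03 to 0.08. Members lower in KD cardiomyocytes numbered 12 to 26 with an array left out, against 21. For WT cardiomyocytes against WT hearts, 7501 genes were called with the dim filter and 18175 on deposited values, against 11736, and 9356 to 11014 with an array left out. The median was -0.68 with centred arrays, -0.97 on KD arrays, -2.00 on deposited values and -1.25 to -1.12 with an array left out. Matrix genes that changed sign by more than the spread between replicates were Adamts1 (-0.12), Lama2 (-0.28), Lamb2 (-0.10), Ogn (-0.12), Hspg2 (-0.47) and Timp4 (-0.28) on deposited values, P4ha1 (0.05), Plod2 (0.27) and Sparc (0.18) with centred arrays, Plod2 on KD arrays (0.27), and Lamc1 in KD hearts (0.01 quantile normalized, 0.03 with the loess trend removed). Smaller sign changes near 0 were more frequent: with an array left out, 7 to 12 of the 45 genes changed sign in KD cardiomyocytes and 3 to 6 in KD hearts, none of them beyond 0.09 on all arrays. Between WT cardiomyocytes and WT hearts 0 to 2 did so, and Mmp9 changed sign on KD arrays. The causes were not tested. Of the summary values, 159 kept their direction and size and 15 moved.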

Other observations

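Ogn lies on chromosome 13 beside 3 related leucine-rich genes, in the order Ecm2, Aspn, Omd and Ogn in the RefSeq annotation, and was looked at with these neighbours after its values were seen. In hearts the KD minus WT differences were -0.44 for Ecm2, -0.81 for Aspn, -0.16 for Omd and -0.43 for Ogn, and in cardiomyocytes -0.26, 0.04, -0.13 and -0.05 in the same order. Aspn was 9.83 and 9.27 in KD hearts and 10.39 and 10.33 in WT hearts. Ecm2 was 8.86 and 8.71 in KD hearts and 9.31 and 9.13 in WT hearts. In both genes the KD arrays lay below the WT arrays. Omd was 5.03 and 5.10 in KD hearts and 5.33 and 5.11 in WT hearts. Its values lay below the array medians, where signal is dim, and KD replicate 2 and WT replicate 2 were nearly equal. The flanking genes Cenpp and Nol8, which encode no matrix protein, were at 0.23 and -0.04 in hearts. Iars, 2 genes from Ogn, was 9.05 and 8.97 in KD hearts and 9.33 and 9.09 in WT hearts, without overlap (-0.20), and was at -0.02 in cardiomyocytes.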
